A study of Mus musculus with 16 samples.

Results

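Small nucleolar RNAs (snoRNAs) were followed in RNA sequencing of the mouse left ventricle. Members were the genes whose symbol begins with Snord or Snora followed by a digit, and there were 138 of them among the 55492 genes in the table, 98 of the box C/D class (Snord) and 40 of the box H/ACA class (Snora). The study compared male C57BL/6 mice aged 8 to 12 weeks without the M2 isoform of pyruvate kinase (PKM2-/-) with PKM2fl/fl controls that carry the loxP-flanked allele and no Cre. The PKM2-/- line was made by crossing floxed mice to a germline CMV-Cre deleter that removed exon 10 of Pkm in all tissues, with the Cre bred out afterwards. Hearts were taken at baseline (2 mice of each genotype), 3 days after sham surgery (3 of each) or 3 days after myocardial infarction (MI, 3 of each) made by ligating the left anterior descending artery, which gave 16 libraries in 6 groups.

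snoRNAs are short nuclear RNAs, most of which are cut from the introns of other genes in mammals. Box C/D snoRNAs carry a C box near the 5′ end and a D box near the 3′ end and mostly guide 2′-O-methylation of ribosomal RNA by fibrillarin, whereas box H/ACA snoRNAs carry an H box in the middle and an ACA triplet at the 3′ end and mostly guide pseudouridylation by dyskerin. A few of them, such as U8, U13, U14, U17 and U22, are needed for cutting and folding the ribosomal RNA precursor, and the heart needs new ribosomes when it grows or repairs.

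The sequences below are those of members on which the results turn, abundant ones and ones that changed after MI. They were taken from the GENCODE M39 transcripts of GRCm39, in which all 138 members were matched by symbol, and are written 5′ to 3′ as DNA. In the box C/D members the capitals mark the C box (TGATGA, searched in the first 25 bases) and the D box (CTGA, searched in the last 20 bases).
Snord80: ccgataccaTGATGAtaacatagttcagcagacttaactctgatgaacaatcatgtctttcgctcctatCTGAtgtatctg
Snord78: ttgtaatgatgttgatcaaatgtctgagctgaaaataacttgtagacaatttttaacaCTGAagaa
Snord12: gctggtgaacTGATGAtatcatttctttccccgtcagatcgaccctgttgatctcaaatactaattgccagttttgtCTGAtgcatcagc
Snord100: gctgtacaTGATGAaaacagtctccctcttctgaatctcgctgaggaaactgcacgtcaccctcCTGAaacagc
Snord118: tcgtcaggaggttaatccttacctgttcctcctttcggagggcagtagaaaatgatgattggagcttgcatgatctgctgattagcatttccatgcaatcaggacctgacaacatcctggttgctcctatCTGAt
Snord17: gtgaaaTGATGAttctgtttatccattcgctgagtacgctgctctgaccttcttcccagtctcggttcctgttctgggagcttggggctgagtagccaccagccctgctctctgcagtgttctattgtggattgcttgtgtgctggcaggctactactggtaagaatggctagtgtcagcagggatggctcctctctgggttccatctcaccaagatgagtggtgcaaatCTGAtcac
In the box H/ACA members the capitals mark the match to the H box (ANANNA) nearest the middle and the ACA triplet, searched in the last 9 bases.
Snora57: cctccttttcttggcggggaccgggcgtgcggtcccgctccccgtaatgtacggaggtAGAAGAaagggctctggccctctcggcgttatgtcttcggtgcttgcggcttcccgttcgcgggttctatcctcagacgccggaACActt
Snora5c: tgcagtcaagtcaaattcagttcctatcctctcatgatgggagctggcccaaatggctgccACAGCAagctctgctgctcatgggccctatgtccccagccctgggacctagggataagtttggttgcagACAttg
Snora73a: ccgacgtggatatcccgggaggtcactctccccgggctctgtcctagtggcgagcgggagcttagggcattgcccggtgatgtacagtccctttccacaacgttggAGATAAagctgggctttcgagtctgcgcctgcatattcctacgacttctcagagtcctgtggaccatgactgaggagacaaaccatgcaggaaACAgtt
Snora73b: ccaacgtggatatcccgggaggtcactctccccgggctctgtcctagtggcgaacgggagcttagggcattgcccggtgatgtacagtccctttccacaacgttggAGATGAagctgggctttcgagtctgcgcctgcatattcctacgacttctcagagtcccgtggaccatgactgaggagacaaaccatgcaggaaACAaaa

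Snord78 and Snord118 held no TGATGA in the first 25 bases, and a missing match says only that these letters are not in that window. Searched on the given strand, both boxes together stood in 68.4% of the box C/D members, in 0% of the box H/ACA members and in 0.103% of all 481956 GENCODE transcripts. The ACA triplet stood near the 3′ end of 95% of the box H/ACA members, 7.14% of the box C/D members and 14.2% of all transcripts. Snora73a and Snora73b were identical at 198 of 205 aligned bases (96.59%), so reads of these 2 genes can be split between them in ways the counting decides, and their separate values are uncertain. The same holds for Snord14c and Snord14d, identical at 97.67% of bases.

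Few sequencing reads fell on snoRNAs. The libraries held between 20623769 and 71855101 reads assigned to genes, and snoRNAs took 0.00674% to 0.0314% of them, which was 656 to 3307 box C/D reads and 1894 to 12677 box H/ACA reads a library. The 95% Wilson binomial interval of a library's box C/D share was 3.41% to 7.66% of the value to either side, and that of the box H/ACA share was 1.74% to 4.50%, both covering counting error only. A single library had a read on 94 to 115 members. Over all libraries 119 members had a read and 19 had none, 18 of them box C/D. Levels are given as normalized counts, which are read counts divided by the size factor the authors computed for each library. The tests across genes took in the 20576 genes with a mean normalized count of at least 10, among them 45 members, 20 of 98 box C/D and 25 of 40 box H/ACA. The 3 members just under that limit were Snora70 (9.92), Snord32a (8.94) and Snora3 (8.63), and the 3 just above it were Snora9 (10.1), Snord100 (10.2) and Snora30 (10.8).

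Members of 150 bases or more had the highest median level. The 6 members of 150 bases or more were all above the limit, and 1 of them, the box C/D member Snord17, held 9.80% of all snoRNA reads while the 5 box H/ACA members held 70.3%. The 86 members shorter than 100 bases, all box C/D, held 6.59%. Per kilobase of annotated length, the median normalized count was 2725 for members of at least 150 bases, 84.0 for those of 100 to under 150 bases and 37.9 for the shorter ones. Across the 119 members with a read, Spearman's rho between length and normalized count per kilobase was 0.30, but 0.10 within the 80 box C/D and 0.20 within the 39 box H/ACA members, a description over genes that share the same libraries. Box C/D members had a median length of 84.5 bases (64 to 238) and box H/ACA members of 132 bases (121 to 205), so the classes differed in length as well. Whether length accounts for the difference in level between the classes was not tested.

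**Figure D1:**
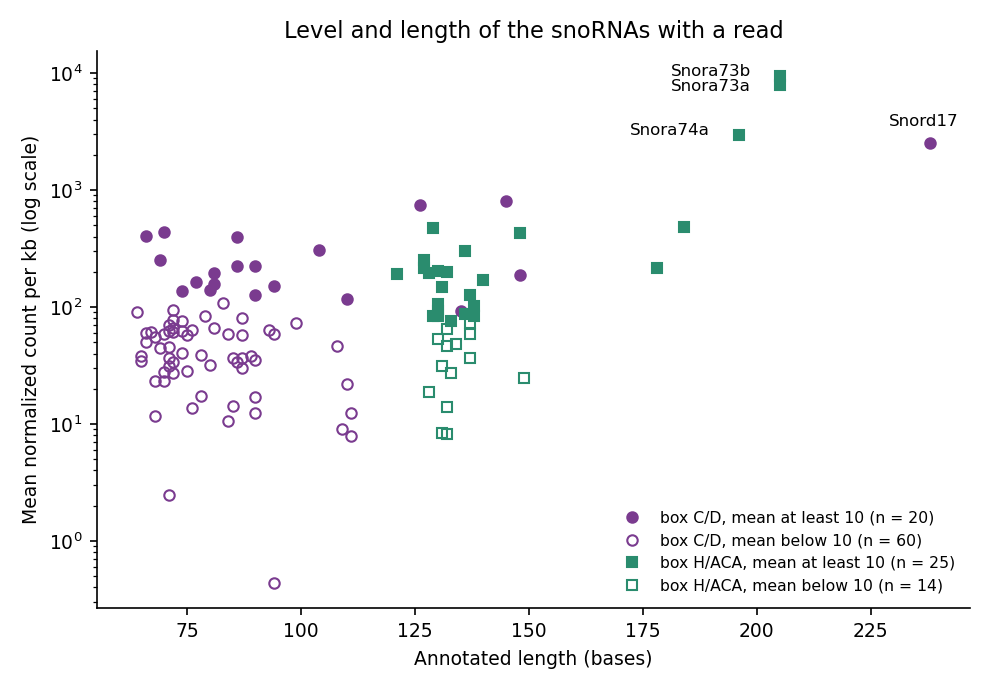
Mean normalized count per kilobase over the 16 libraries (vertical axis, log scale) against annotated length in bases (horizontal axis) for the 119 snoRNAs with a read. Circles are box C/D and squares box H/ACA members, filled where the mean normalized count was at least 10. Snora73b, Snora73a, Snora74a and Snord17 lie above all others, and most members shorter than 100 bases fell under the limit.

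The 5 most abundant box H/ACA members were Snora73b, Snora73a, Snora74a, Snora23 and Snora57, and the 5 most abundant box C/D members were Snord17, Snord15b, Snord22, Snord14d and Snord13. Snora73b, Snora73a, Snora74a and Snord17 together held 69.1% to 83.4% of the snoRNA reads of each library. Snora73a and Snora73b are the copies of U17, which is needed for the early cuts that release 18S ribosomal RNA. In mm10 (RefSeq GRCm38.p6 coordinates) Snora73b is at chr4:132352322-132352526 and Snora73a at chr4:132352775-132352979, on the minus strand, both in introns of Rcc1 by the GENCODE annotation. Their levels per kilobase, 9413 and 7912, were the highest of all members.

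Snora73b was at 1427 and 1349 normalized counts in PKM2fl/fl hearts at baseline, 3138, 2031 and 2306 after sham surgery and 1709.7, 2018 and 4461 after MI. The PKM2-/- values were 1669 and 1541 at baseline, 1535, 991 and 1045 after sham surgery and 1218, 2724 and 1709.5 after MI. The 3 PKM2-/- sham libraries lay below the 3 PKM2fl/fl sham libraries without overlap, and 1 PKM2fl/fl MI library stood far above the other two.

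Snora74a, the U19 snoRNA, was at 686 and 1200.2 in PKM2fl/fl baseline libraries, 949, 919.7 and 1209.9 after sham surgery and 189, 497 and 475 after MI. Among PKM2-/- libraries it was at 620.0 and 447 at baseline, 296, 328 and 396 after sham surgery and 242, 472 and 249.6 after MI. The PKM2fl/fl baseline and sham libraries thus held the highest values, and every other library lay below all of them. Snora23 ranged from 30.9 to 209 over the 16 libraries.

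Snord17 (chr2:144265982-144266202, minus strand, in an intron of Snx5), a guide of 28S methylation, was at 451 and 565 normalized counts in PKM2fl/fl hearts at baseline, 1093, 452 and 715 after sham surgery and 479, 639.8 and 1270.3 after MI. The PKM2-/- libraries held 690.0 and 601 at baseline, 482, 362 and 346 after sham surgery and 389.9, 694 and 381 after MI. Per kilobase it was the highest box C/D member at 2524, followed by Snord15b at 803 and Snord22 at 751. Snord15b (U15B) lies in an intron of Rps3 and Snord22 (U22, needed for 18S formation) in an intron of Snhg1.

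Summed over each class, box H/ACA snoRNAs were a smaller share of all assigned reads in PKM2-/- than in PKM2fl/fl hearts at baseline and after sham surgery, but not after MI. At baseline this separation was lost when reads on ribosomal RNA loci were left out, and the genotype difference pooled over treatments did not pass the test after adjustment. Box H/ACA reads per 1000000 assigned reads were 124 and 132 in PKM2fl/fl hearts at baseline, 227, 178 and 176 after sham surgery and 83.98, 194 and 256 after MI. PKM2-/- libraries had 86.9 and 88.3 at baseline, 99.4, 68.02 and 50.8 after sham surgery and 134, 215 and 138 after MI. The genotypes did not overlap at baseline or after sham surgery, where the PKM2-/- geometric mean was 0.686 and 0.364 times that of PKM2fl/fl, and they overlapped after MI at 0.985 times. Among the reads outside the ribosomal RNA loci the baseline libraries overlapped, at 149.4 and 169 in PKM2fl/fl and 152 and 144 in PKM2-/- hearts, as did their summed normalized counts, 3628 and 4307 against 4272 and 3901. After sham surgery the genotypes stayed apart on both scales.

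Box C/D reads per 1000000 were 30.8 and 35.7 in PKM2fl/fl hearts at baseline, 59.8, 34.2 and 40.7 after sham surgery and 30.2, 57.5 and 58.0 after MI. In PKM2-/- hearts they were 29.4 and 31.8 at baseline, 31.8, 24.3 and 16.6 after sham surgery and 51.2, 55.7 and 36.6 after MI. The genotypes were apart only after sham surgery, where the PKM2-/- geometric mean was 0.536 times that of PKM2fl/fl. Outside the ribosomal RNA loci they overlapped after sham surgery, and at baseline the PKM2-/- libraries were higher, at 51.6 and 51.8 against 37.2 and 45.8. The number of box H/ACA reads per box C/D read was 4.02 and 3.69 at baseline, 3.79, 5.20 and 4.34 after sham surgery and 2.78, 3.37 and 4.41 after MI in PKM2fl/fl hearts. It was 2.95 and 2.77 at baseline, 3.13, 2.80 and 3.06 after sham surgery and 2.62, 3.86 and 3.76 after MI in PKM2-/- hearts, and so lay below all PKM2fl/fl values of the same treatment at baseline and after sham surgery.

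**Figure D2:**
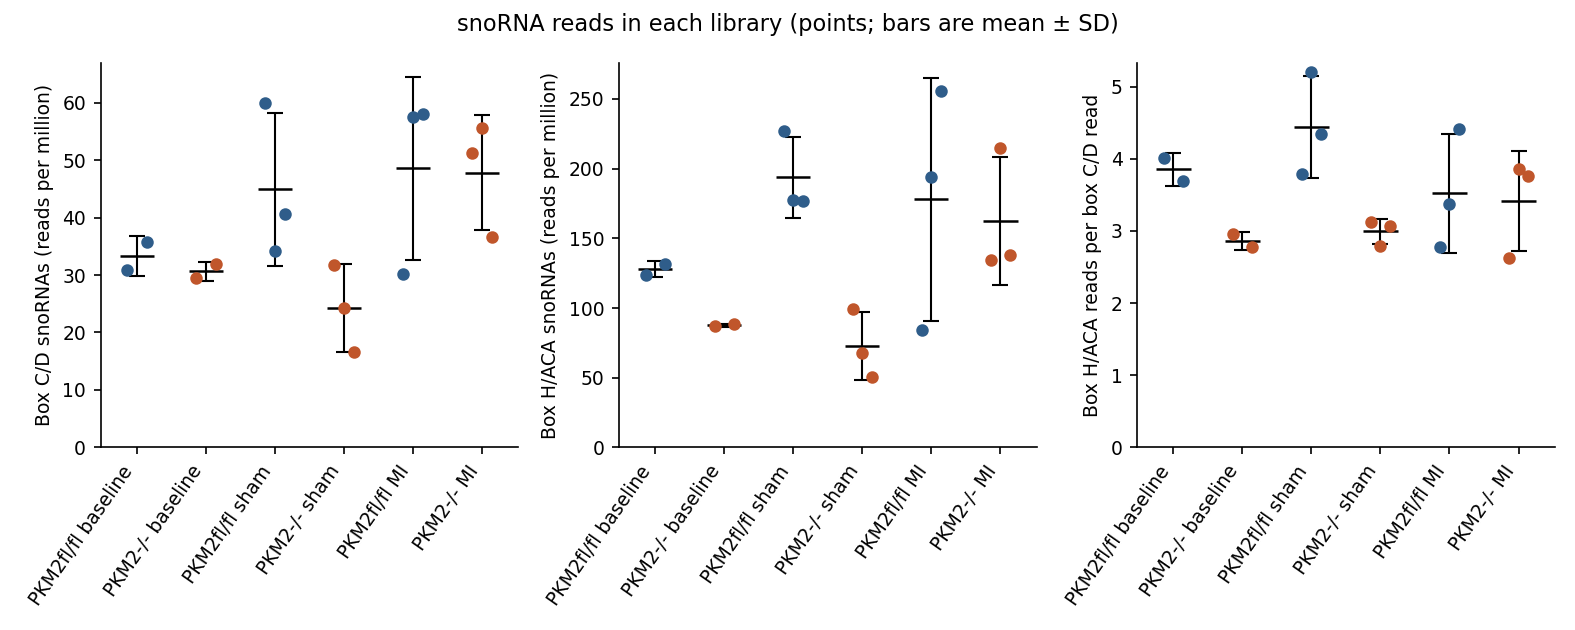
Box C/D and box H/ACA reads per 1000000 assigned reads and their ratio (vertical axes) in each library, by group, with PKM2fl/fl in blue and PKM2-/- in orange. Points are libraries and bars are mean ± SD (n = 2 at baseline, 3 otherwise). Box H/ACA reads per 1000000 of all assigned reads lie lower in PKM2-/- at baseline and after sham surgery and overlap after MI.

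The shares were tested with two-sided exact permutation tests that permuted the labels within strata, with Benjamini-Hochberg adjustment over 9 tests. With genotype permuted within each treatment (2400 permutations, smallest possible p = 0.000833), PKM2-/- minus PKM2fl/fl was −0.67 on the log2 scale for the box H/ACA share (permutation p = 0.02, adjusted p = 0.09), −0.33 for the box C/D share (permutation p = 0.107, adjusted p = 0.242) and −0.34 for the ratio (permutation p = 0.0192, adjusted p = 0.09). None of the 3 passed an adjusted p of 0.05. The outcome turned on 1 library: without PKM2fl/fl MI replicate 1 the differences were −0.83, −0.44 and −0.39 with adjusted permutation p of 0.0225, 0.03 and 0.03. Without the 4 most abundant members the box H/ACA difference was −0.32 (permutation p = 0.116) and that of the ratio −0.17.

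MI minus sham, permuted within genotype (400 permutations, smallest possible p = 0.005), was 0.55 for the box C/D share (permutation p = 0.095, adjusted p = 0.242), 0.46 for the box H/ACA share (permutation p = 0.23) and −0.09 for the ratio (permutation p = 0.615). In PKM2-/- hearts the MI libraries lay above the sham libraries without overlap, at 2.01 times the geometric mean for box C/D and 2.26 times for box H/ACA, whereas in PKM2fl/fl hearts the 2 treatments overlapped at 1.07 and 0.837 times. Among reads outside the ribosomal RNA loci both classes stayed apart in PKM2-/- hearts. As summed normalized counts box C/D stayed apart there. Box H/ACA sums overlapped, at 3297, 2474 and 2730 after sham surgery and 3098, 6455 and 4439 after MI. Without PKM2fl/fl MI replicate 1, whose shares were the lowest of its group, the pooled MI differences were 0.71 and 0.69, each with an adjusted permutation p of 0.045. Sham minus baseline was 0.00 for box C/D, 0.13 for box H/ACA and 0.13 for the ratio on the log2 scale, with permutation p of 0.98, 0.57 and 0.19.

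The share of reads on 4 annotated ribosomal RNA loci moved between libraries too, from 15.4% to 44.5%, and enters the denominator of every share of assigned reads given here, but not the ratio of the classes. It was 17.2% and 22.1% in PKM2fl/fl baseline libraries against 43.0% and 38.6% in PKM2-/- baseline libraries. PKM2fl/fl MI replicate 1 had 42.2%. Counted among the reads outside these loci, the genotype difference of the box H/ACA share was −0.52 (permutation p = 0.0408, adjusted p = 0.122) and that of the box C/D share −0.18.

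After MI, individual snoRNAs changed in both genotypes, mostly upward. A gene was called where limma's Benjamini-Hochberg adjusted p over all genes was under 0.05 and the change was at least 2-fold. In PKM2fl/fl hearts 6 of the 45 tested members rose, against 12.4% of all genes tested, and 1 fell, against 11.1% (23.5% in either direction). In PKM2-/- hearts 7 rose, against 14.5% of all genes, and 1 fell, against 14.3% (28.8% in either direction). The called shares were therefore near those of all genes for rises and below them for falls. The median change of the 45 members was 0.52 in PKM2fl/fl and 0.61 in PKM2-/- on the log2 scale, and the medians of all genes were close to 0. Of the members called as higher, 4 of 6 and 5 of 7 had a sham mean under 10 and passed the limit on low values through their level in other groups. In PKM2fl/fl these were Snord100, Snord118, Snord12 and Snord80, and in PKM2-/- Snora30, Snora31, Snord118, Snord12 and Snord80. The numbers called are therefore no measure of how often snoRNAs rose. The adjusted p of these members, given below, are no independent support for a rise. Without that limit Snord80 kept both calls, Snord118 its PKM2fl/fl call and Snord12 its PKM2-/- call, and the others lost theirs.

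The box C/D members that rose were guides of ribosomal RNA methylation and the processing snoRNA U8. Snord80, a methylation guide in an intron of the non-coding host gene Gas5, was at 10.6, 5.13 and 5.88 normalized counts in PKM2fl/fl sham and 24.7, 23.6 and 53.96 in PKM2fl/fl MI libraries. In PKM2-/- hearts it was at 4.82, 5.22 and 11.9 after sham surgery and 28.4, 26.04 and 37.5 after MI. In each genotype every MI library lay above every sham library. The log2 changes were 2.05 (SE 0.50, adjusted p = 0.00315) and 2.01 (SE 0.50, adjusted p = 0.00302), and the call held in both genotypes under all 14 alternatives tried.

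Snord78, a second guide from Gas5, was at 19.4, 10.3 and 19.6 in PKM2fl/fl sham and 27.8, 26.8 and 50.3 in PKM2fl/fl MI libraries, without overlap. It rose by 1.04 (SE 0.39, adjusted p = 0.0351) on the log2 scale in PKM2fl/fl hearts, and its difference in PKM2-/- hearts was 0.75 (SE 0.39, adjusted p = 0.112). Without PKM2fl/fl sham replicate 2 or MI replicate 3 the PKM2fl/fl change was 0.75 in both fits (adjusted p = 0.153 and 0.162). The Snord78 call was also lost without the limit on low values, with scaling by total reads and with only the groups compared. Snord47, the third Gas5 guide in the table, had differences of 0.98 (SE 0.62, adjusted p = 0.205) and 1.29 (SE 0.62, adjusted p = 0.0896). The 3 Gas5 guides summed to 25.7 to 36.4 normalized counts in PKM2fl/fl sham and 57.9 to 131.7 in PKM2fl/fl MI libraries.

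Snord12 (chr2:167065293-167065358, plus strand), a guide in an intron of the non-coding host gene Zfas1, was at 2.35, 10.3 and 3.43 in PKM2fl/fl sham and 18.5, 17.1 and 21.03 in PKM2fl/fl MI libraries. The PKM2-/- values were 1.61, 6.53 and 7.55 after sham surgery and 28.4, 15.2 and 25.97 after MI, and the treatments did not overlap in either genotype. Its log2 changes were 1.85 (SE 0.63, adjusted p = 0.0238) and 2.09 (SE 0.63, adjusted p = 0.0108). The PKM2fl/fl call was lost without sham replicate 1 (adjusted p = 0.1), sham replicate 3 (0.0729), MI replicate 1 (0.0504) or MI replicate 3 (0.0643), and the PKM2-/- call without sham replicate 1 (0.0579). Without the limit on low values or with scaling by total reads the PKM2fl/fl call was lost as well.

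Snord118 (chr11:69073426-69073562, plus strand, in an intron of Tmem107), the U8 snoRNA needed for 5.8S and 28S maturation, was at 11.8, 4.11 and 10.8 in PKM2fl/fl sham and 21.6, 30.01 and 34.8 in PKM2fl/fl MI libraries. The PKM2-/- values were 3.22, 7.84 and 3.24 after sham surgery and 11.3, 19.7 and 8.66 after MI. MI libraries were above sham libraries without overlap in both genotypes. The log2 changes were 1.68 (SE 0.53, adjusted p = 0.0162) and 1.32 (SE 0.53, adjusted p = 0.0457). The first call was lost without PKM2fl/fl sham replicate 2 (adjusted p = 0.0848) or MI replicate 3 (0.0589), and the second without PKM2-/- sham replicate 1 (0.124) or 3 (0.124) or MI replicate 1 (0.0719) or 2 (0.172). Scaling by total reads lost the first call too. The second was also lost with a pseudocount of 0.1, without the limit on low values, with DESeq2 and with the replicate number as a block.

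Snord100 (chr10:23785754-23785821, minus strand, in an intron of Rps12), a ribosomal RNA methylation guide, was at 5.29, 8.21 and 4.90 in PKM2fl/fl sham and 20.1, 15.003 and 15.5 in PKM2fl/fl MI libraries, without overlap. It rose by 1.34 (SE 0.48, adjusted p = 0.0308) there, and the PKM2-/- difference was 0.80 (SE 0.48, adjusted p = 0.175). The call was lost without PKM2fl/fl sham replicate 1 (adjusted p = 0.0827) or 3 (0.0913), and in 3 of the 6 fits that left out a library its mean was under the limit on low values. Without that limit or with scaling by total reads the call was lost as well.

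**Figure D3:**
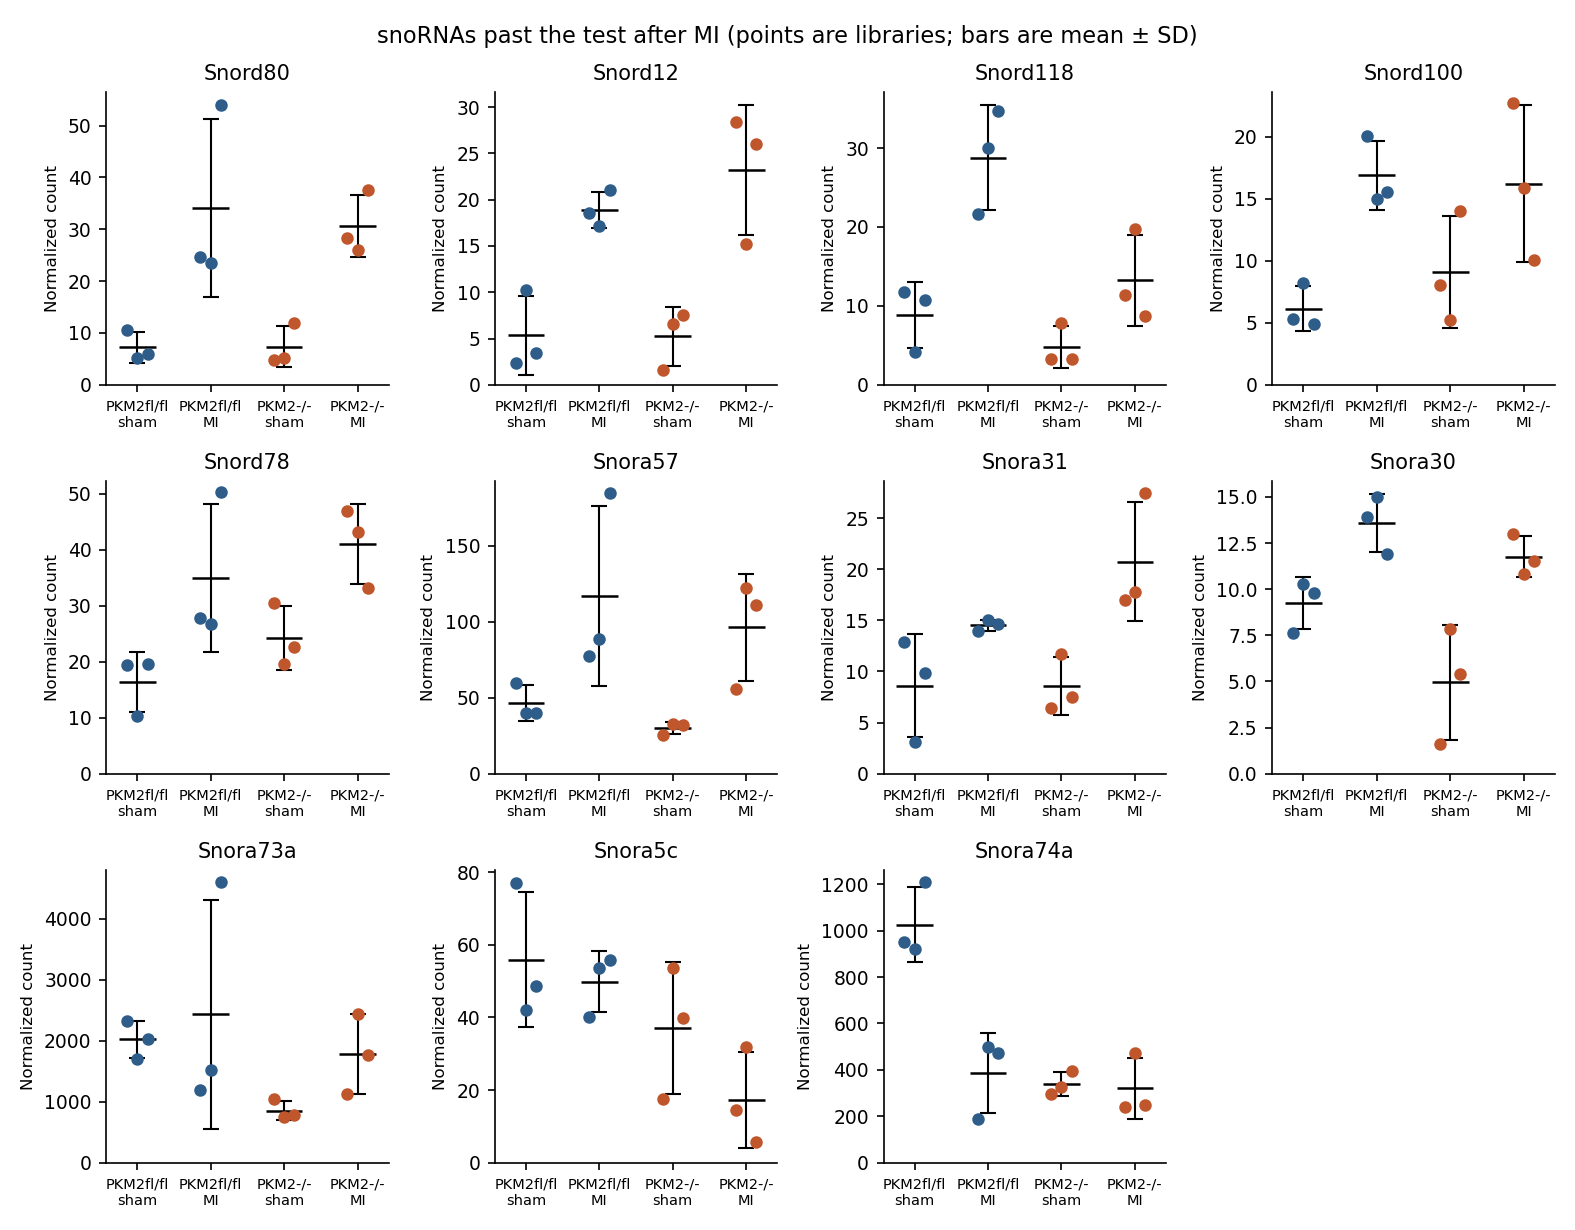
Normalized counts (vertical axes, each from 0) of the 11 snoRNAs called after MI in either genotype, in the sham and MI libraries of PKM2fl/fl (blue) and PKM2-/- (orange) hearts. Points are libraries and bars are mean ± SD (n = 3). Snord80, Snord12, Snord118 and Snora57 lie higher after MI in both genotypes, while Snora74a is lower after MI in PKM2fl/fl hearts and overlaps in PKM2-/- hearts.

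Among box H/ACA members, Snora57 rose in both genotypes. This pseudouridylation guide (chr19:8888536-8888685, minus strand, in an intron of the lncRNA gene Gm59359 and opposite Lbhd1) was at 59.9, 40.03 and 39.7 in PKM2fl/fl sham and 77.3, 88.9 and 185 in PKM2fl/fl MI libraries. Its PKM2-/- values were 25.7, 32.6 and 32.4 after sham surgery and 55.9, 122 and 111 after MI, and no MI library overlapped a sham library of its genotype. The log2 changes were 1.23 (SE 0.34, adjusted p = 0.00684) and 1.57 (SE 0.34, adjusted p = 9.92e-04). The PKM2-/- call held under all 14 alternatives, and the PKM2fl/fl change was 0.85, under the 2-fold limit, without MI replicate 3 (adjusted p = 0.0443). How strand was counted is not given in the sources used here, so reads of Snora57 and Lbhd1, and likewise of Snora5c and Ccm2 and of both Snora73 copies and Gm17300, on opposite strands, may not have been kept apart.

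Snora74a fell after MI in PKM2fl/fl hearts by 1.52 on the log2 scale (SE 0.34, adjusted p = 0.00159), and this call held under all 14 alternatives. In PKM2-/- hearts, where the sham level was already low, the difference was −0.14 (95% interval −0.86 to 0.58, adjusted p = 0.741). The MI change in PKM2-/- minus that in PKM2fl/fl was 1.38 (95% interval 0.36 to 2.39) with an unadjusted limma p of 0.0114 and an adjusted p of 0.507, so the genotypes were not shown to differ in it.

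Snora73a was at 1039, 742 and 784 in PKM2-/- sham and 1131, 2439 and 1763 in PKM2-/- MI libraries and rose by 1.00 (SE 0.37, adjusted p = 0.031). Its near copy Snora73b had a difference of 0.61 (SE 0.32, adjusted p = 0.118) in the same hearts. In PKM2fl/fl hearts both differences were 0.02. The Snora73a call was lost without PKM2-/- sham replicate 2 (adjusted p = 0.0887) or 3 (0.0791) or MI replicate 2 (0.14) or 3 (0.0733). DESeq2 did not call Snora73a either (adjusted p = 0.0549).

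The other box H/ACA calls were in PKM2-/- hearts and were each lost when single libraries were left out. Snora30 (chr7:127527897-127528003, in an intron of Srcap) was at 1.61, 7.84 and 5.39 after sham surgery and 12.97, 10.8 and 11.5 after MI and changed by 1.27 (SE 0.43, adjusted p = 0.0202). Without PKM2-/- sham replicate 1, which held its lowest value, the change was 0.76 (adjusted p = 0.103), and without MI replicate 1 the adjusted p was 0.0544. The Snora30 call was also lost without the limit on low values and with DESeq2 (adjusted p = 0.0974). Snora31 (chr14:75847923-75848034, in an intron of Tpt1) was at 6.43, 11.8 and 7.55 after sham surgery and 17.02, 17.8 and 27.4 after MI and changed by 1.19 (SE 0.49, adjusted p = 0.0489). Snora5c (chr11:6620319-6620419, in an intron of Tbrg4) was at 17.7, 53.5 and 39.9 after sham surgery and 14.6, 31.8 and 5.77 after MI, with overlap, and changed by −1.197 on the log2 scale (SE 0.49, adjusted p = 0.0487). The Snora31 call was lost without any 1 of 5 libraries, PKM2-/- sham replicates 1 and 3 and MI replicates 1, 2 and 3 (adjusted p 0.0629 to 0.157), and the Snora5c call without sham replicate 2 or 3 or MI replicate 1 or 3 (adjusted p 0.0843 to 0.267). Both calls were also lost with a pseudocount of 0.1, without the limit on low values, with edgeR and with DESeq2. Of 14 alternatives, 4 kept the Snora31 call and 3 the Snora5c call.

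Snord80, Snord12, Snord118 and Snora57 were called in both genotypes, which was 57.1% of the 7 calls in PKM2fl/fl and 50% of the 8 in PKM2-/-. The sign of the change was the same in both genotypes for 34 of the 45 members, 29 of them higher after MI and 5 lower. The same count was not made over all genes. In each genotype 12 of the 45 had a sham mean under 10 and were tested through their level in other groups. The agreement in sign is therefore no measure of a rise particular to snoRNAs. The test of the difference between the MI changes of the 2 genotypes called 0 of 45 members and 0% of all genes with limma, 2 members had an unadjusted p under 0.05 (8.28% of all genes), and edgeR and DESeq2 called 0 members too, where DESeq2 called 0.0748% of all genes as lower. Members whose MI libraries lay above all sham libraries numbered 15 in PKM2fl/fl, against 30% of all genes, and 12 in PKM2-/-, against 31.7%. Those below numbered 1 (29%) and 0 (30.6%).

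**Figure D4:**
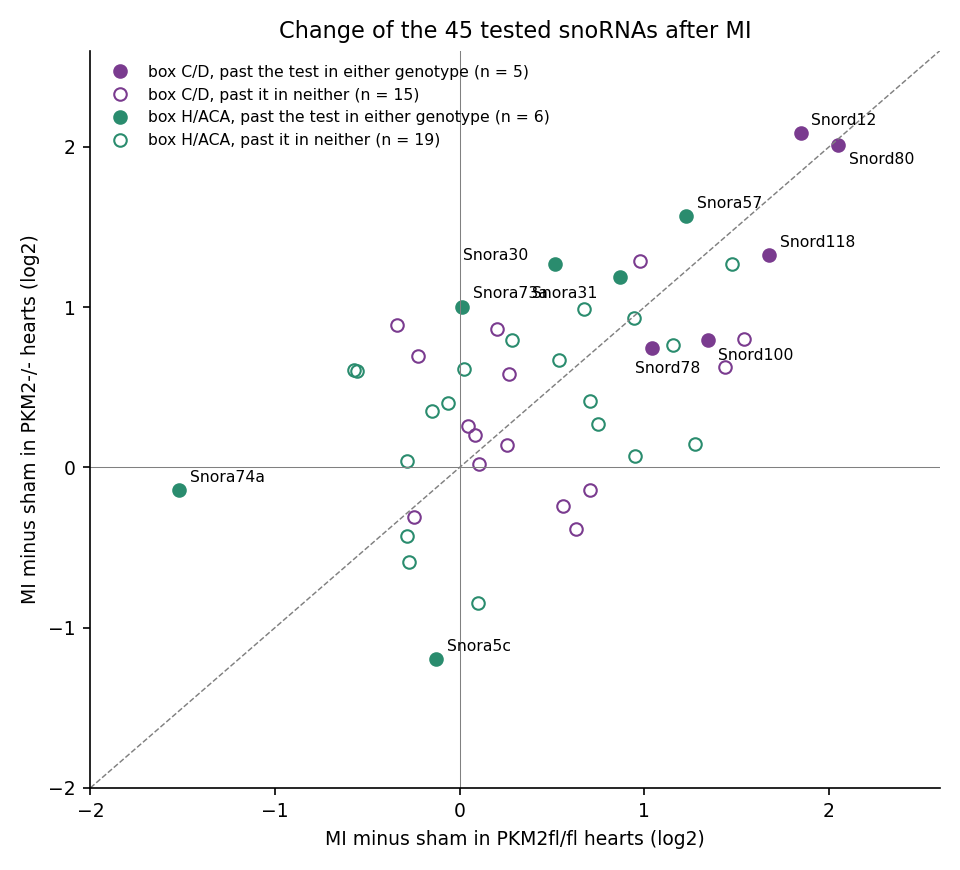
Log2 change after MI in PKM2-/- hearts (vertical axis) against that in PKM2fl/fl hearts (horizontal axis) for the 45 tested snoRNAs, from limma on log2(normalized count + 1). Filled points passed the test in either genotype, 5 box C/D and 6 box H/ACA members, and the dashed line marks equal change. Of the points, 29 lie above 0 on both axes and Snora74a lies apart on the left.

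The cell makeup of the ventricle moved with MI. All 8 cardiomyocyte markers were among the genes tested and had a median log2 change of −1.70 in PKM2fl/fl and −2.13 in PKM2-/- hearts, with 7 and 8 called lower. The 7 fibroblast markers had a median of 2.54 and 2.68 (4 and 4 called higher), the 8 leukocyte markers 1.73 and 1.86 (6 and 6) and the 5 dividing cell markers 3.52 and 3.79 (5 and 5), while 0 of 6 endothelial markers were called. No listed marker was at 0 in any group, and the summed cardiomyocyte markers were the highest of these lists in every group. Their part in the snoRNA results was not tested. In these bulk samples fewer cells of a type and less RNA per cell cannot be told apart.

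Counts tested as reads called more members. With edgeR, of 67 tested, 14 members rose and 1 fell in PKM2fl/fl, against 12.7% and 10.2% of all genes it tested. In PKM2-/- 15 rose and 0 fell, against 14.3% and 13.6%. With DESeq2, of 119 tested, 15 rose and 1 fell in PKM2fl/fl, against 7.47% and 5.87%, and 13 rose and 0 fell in PKM2-/-, against 8.32% and 8.01% of all genes with a p, the ones of very low count included. The additions were mostly short box C/D members of low count, such as Snord83b, Snord49a and Snord16a, which both tools called in both genotypes. Scaling by total reads in place of the size factors moved the median of all genes by −0.17 in PKM2fl/fl and 0.52 in PKM2-/- on the log2 scale. Of 47 members it gave 2 rises and 1 fall in PKM2fl/fl, against 9.77% and 13.6% of all genes, and 18 rises and 0 falls in PKM2-/-, against 26.4% and 7.27%, with snoRNA medians of 0.36 and 1.10. The TMM factors of edgeR, with 46 members, gave 6 rises and 1 fall (12.2% and 11.4% of all genes), and 8 and 0 (14.8% and 13.9%).

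Between genotypes, 0 of 45 members were called at baseline, after sham surgery or after MI, where 0.00972%, 0.00486% and 0.413% of all genes were called in either direction (after MI, 0.156% higher and 0.258% lower). With limma 11, 11 and 6 members had an unadjusted p under 0.05, where 3.64%, 9.95% and 17% of all genes did. edgeR called 0 members in all 3 comparisons, and DESeq2 called 0, 1 (Snora74a, lower after sham surgery, where it called 0.0923% of all genes lower) and 1 (Snora5c, lower after MI, against 0.484%). The targeted gene could not check the labels, since the counts for Pkm join its isoforms: they ranged from 7779 to 12076 in PKM2fl/fl and from 10120 to 16113 in PKM2-/- libraries.

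The members still leaned one way in each state, and not the same way. At baseline 33 of 45 had a positive PKM2-/- minus PKM2fl/fl difference (median 0.39 on the log2 scale), after sham surgery 10 of 45 (median −0.49) and after MI 12 of 45 (median −0.41). These sign counts are not set beside the same count over all genes. The medians were 0.36 and 0.43 for box C/D and box H/ACA at baseline, −0.14 and −0.63 after sham surgery and −0.25 and −0.48 after MI. At baseline 21 members lay higher in PKM2-/- without overlap, against 17.7% of all genes, and 2 lay lower, against 17.2%. After sham surgery the counts were 0 (8.27%) and 7 (8.28%), and after MI 1 (10.7%) and 10 (8.26%). The 3 comparisons use different libraries, yet the members of 1 library share its depth and its RNA, so these counts are not independent of each other. Under scaling by total reads the baseline median turned to −0.17 where that of all genes was −0.59, the sham median was −0.81 where that of all genes was −0.33, and the MI median was −0.05 where that of all genes was 0.36. For box C/D after MI it turned to 0.11. Relative to all genes, the order of the states was kept under this scaling. The share of reads on ribosomal RNA loci differed between the baseline genotypes as given above, and its part here was not tested.

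**Figure D5:**
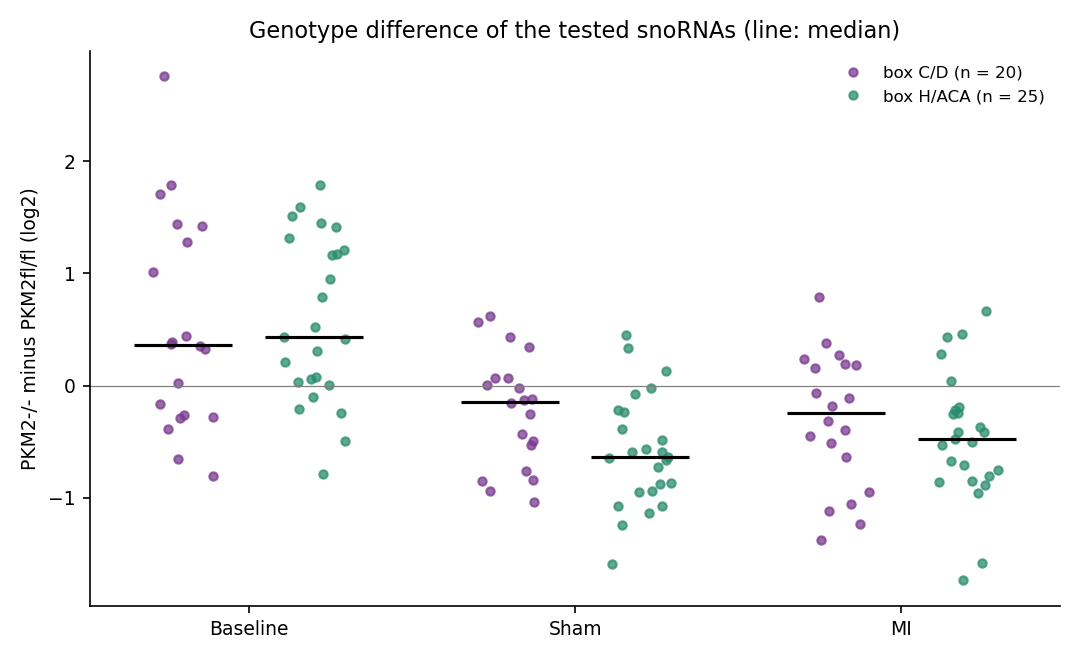
PKM2-/- minus PKM2fl/fl difference (log2, vertical axis) of the 20 box C/D and 25 box H/ACA members tested, at baseline, after sham surgery and after MI. Each point is 1 snoRNA and each line a median. The medians are 0.36 and 0.43 at baseline and lie below 0 after sham surgery and after MI.

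Snord13, the U13 snoRNA that takes part in 18S maturation, showed the turn most clearly. It was at 13.3 and 13.9 normalized counts in PKM2fl/fl and 44.3 and 54.98 in PKM2-/- baseline libraries, and at 51.01, 45.01 and 60.4 and 12.97, 38.1 and 14.4 after MI. The genotypes did not overlap in either state, with PKM2-/- higher at baseline and lower after MI. The differences were 1.78 (SE 0.47, adjusted p = 0.706) and −1.37 (SE 0.38, adjusted p = 0.0878). The genotype difference after MI minus that at baseline was −3.16 (95% interval −4.44 to −1.87), with an unadjusted limma p of 9.73e-05 and an adjusted p of 0.138. In the same way, 7 of 45 members were apart in opposite directions at baseline and after MI, against 3.75% of all genes, and 4 at baseline and after sham surgery, against 3.25%. Over all members 0 of 45 passed the test of the difference between baseline and MI against 0.0243% of all genes, 12 had an unadjusted p under 0.05 (9.37% of all genes), edgeR called 0, and DESeq2 called Snora44, Snora5c, Snora7a and Snord13 as lower, against 0.242% of all genes.

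After sham surgery the 5 lowest differences were those of box H/ACA members, the long Snora74a, Snora73a and Snora73b and the shorter Snora21 and Snora7a. Snora74a differed by −1.59 (SE 0.34, adjusted p = 0.105), Snora73a by −1.24 (SE 0.37, adjusted p = 0.233) and Snora73b by −1.07 (SE 0.32, adjusted p = 0.237). The PKM2-/- sham libraries of these 3 all lay below the PKM2fl/fl sham libraries. Snora21 differed by −1.14 and Snora7a by −1.07. For Snord17 the difference was −0.85 (SE 0.34, adjusted p = 0.421), and its groups overlapped.

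The 10 members of the list of ribosomal RNA processing snoRNAs, fixed as U8, U13, U14, U17, U19 and U22, were all found with reads, and 9 were tested. Their summed normalized counts were 3345 and 3906 in PKM2fl/fl and 3484 and 3748 in PKM2-/- baseline libraries. After sham surgery they ranged from 4784 to 6754 in PKM2fl/fl and from 2214 to 3051 in PKM2-/- hearts, without overlap, and after MI the ranges overlapped. Snora73b, Snora73a and Snora74a were the highest of the 10. With Snord17, which is not on the list, they held 69.1% to 83.4% of the snoRNA reads of each library. The sums are therefore largely those of Snora73b, Snora73a and Snora74a and are no result separate from theirs. Of the 4 members from Rpl13a introns, which guide methylation, none reached the limit on low values. Their highest, Snord32a, ranged from 1.31 to 24.7. Of the 17 Snord116 members, the imprinted array in Snhg14, 16 had no read and Snord116l10 had 1 read in all libraries. Of these 17, 14 share their sequence with another member, so a read within that sequence cannot be traced to 1 copy by its bases.

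All 138 members lay in a gene on the same strand in GENCODE M39, 128 in an intron and 10 in an exon of its canonical transcript. The host was protein-coding for 88 members and a lncRNA for 50, and 31 lay in ribosomal protein genes. An exon of some annotated transcript on either strand, such as one that retains the intron, overlapped 90 members, and reads of such transcripts cannot be told from those of the snoRNA in these counts. For 40 tested members the host was tested as well (30 hosts). After MI the snoRNA and its host changed with the same sign in 26 of 40 pairs in PKM2fl/fl and 32 of 40 in PKM2-/- hearts. Pearson's r over the pairs was 0.48 and 0.44 and Spearman's rho 0.46 and 0.41, descriptions over genes of the same libraries in which several snoRNAs share a host.

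The hosts that were tested had smaller differences than the called snoRNAs they hold. Gas5 differed by 0.84 in PKM2fl/fl hearts (adjusted p = 8.88e-05), under the 2-fold limit, and rose by 1.03 in PKM2-/- hearts (adjusted p = 9.93e-06), against 2.05 and 2.01 for Snord80. Zfas1, the host of Snord12, differed by 0.38 and 0.99. Tmem107, the host of Snord118, differed by 0.82 and 0.27, and Snhg4, the host of Snora74a, by −0.34 and 0.02. Srcap, the host of Snora30, differed by −0.05 and Tpt1, the host of Snora31, by 0.03 in PKM2-/- hearts. Whether snoRNA and host differ in their change was not tested.

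The proteins that bind snoRNAs were tested as a list. Of the box C/D core proteins, Nop58 rose by 1.14 (adjusted p = 2.51e-07) and the methyltransferase fibrillarin (Fbl) by 1.02 (adjusted p = 4.14e-05) after MI in PKM2-/- hearts, with Nop56 at 0.87 and Snu13 at 0.03. In PKM2fl/fl hearts the 4 differed by 0.74, 0.73, 0.59 and −0.08 in the same order, and none reached 2-fold. Of the box H/ACA core proteins, Nhp2 rose in PKM2-/- hearts (1.204 on the log2 scale, adjusted p = 4.79e-05), while the pseudouridine synthase Dkc1 was at 0.65, Gar1 at 0.73 and Nop10 at −0.40. In PKM2fl/fl hearts Nhp2 was at 0.72, Dkc1 at 0.26, Gar1 at 0.74 and Nop10 at −0.75, with none called. Of all genes, 14.5% were called higher after MI in PKM2-/- and 12.4% in PKM2fl/fl hearts. Between genotypes 0 of these 8 genes were called in any state, where 0.00972%, 0.00486% and 0.413% of all genes were called at baseline, after sham surgery and after MI.

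Of 9 snoRNP assembly factors 0 were called in any comparison. After MI 23.5% of all genes were called in either direction in PKM2fl/fl and 28.8% in PKM2-/- hearts, and between genotypes at most 0.413%. Of 16 tested non-coding host genes, 3 rose after MI in PKM2fl/fl hearts, where 12.4% of all genes did, namely Mirg by 2.05, Snhg5 by 1.39 and Snhg18 by 1.38. After MI in PKM2-/- hearts 7 rose, against 14.5% of all genes, and 1 fell, against 14.3%, among them Snhg5 by 2.08 (adjusted p = 5.53e-07), Gas5, Snhg17 by 1.39 (adjusted p = 2.22e-05), Snhg1 by 1.34 (adjusted p = 2.58e-05) and Mirg by 1.24. The fall was that of Snhg11, by 2.19 (adjusted p = 0.0189). Its mean was 45.4 in PKM2-/- sham hearts and 5.61 to 14.1 in the other groups. It passed the limit on low values only through that sham group, the one the fall is measured from, so this call is no support for a fall. Snord22, which lies in Snhg1, had a difference of 0.89 (SE 0.44, adjusted p = 0.0972) in the same hearts.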

How the data were processed

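Left ventricular RNA was extracted on silica columns (RNeasy mini kit), depleted of ribosomal RNA and sequenced in paired ends. Column kits of this kind retain short RNAs poorly, which bears on levels of snoRNAs of different length. Per the study's methods reads were trimmed with PRINSEQ, aligned to mm10 with HISAT2 and counted with featureCounts. Versions and the settings for strand and for reads with several positions are not given in the sources used here. The deposited values are a signal, gene counts that the authors divided by DESeq2 size factors. Whole reads were recovered for 100% of 887872 values (tolerance 0.01). The deposited log2 fold changes, Wald scores and p-values, which the authors computed for PKM2-/- against PKM2fl/fl at baseline with DESeq2, were not used.

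Normalized counts were tested as log2(value + 1) with limma-trend (limma 3.58.1, R 4.3.3) over all 16 libraries in 6 groups, for 20576 genes with a mean of at least 10, with Benjamini-Hochberg adjustment and a 2-fold limit, which the 2 differences of effects did not have. Fold changes on this scale understate those of low genes. Recovered reads were tested with edgeR 4.0.16 and DESeq2 1.42.0. In simulated data for MI against sham in PKM2fl/fl, limma found 200 of 200 changed genes with 8 false calls among 20424 genes. All changed genes there had means well above the limit of 10 and changes of the same size, well over 2-fold. That recovery does not carry over to members near the limit or with changes near 2-fold. Class shares were compared by exact permutation within strata. Each library is 1 heart by its title. Named were the 5 most abundant members of each class, all members called (up to 10 a comparison), up to 3 of each subgroup, all core proteins, and up to 5 called genes of each other list. Snord83b, Snord49a and Snord16a were named after their values were seen. The members and lists were chosen with earlier results of these data known. mm10 coordinates, found for 131 members, are from RefSeq GRCm38.p6, and sequences, lengths and hosts from GENCODE M39. Alternatives were a pseudocount of 0.1, no limit on low values, other scalings and tools, only the groups compared, a replicate block and leaving out each library. Replicate numbers were not taken as a pairing of the libraries: of 36 same-numbered pairs 1 had a correlation of deviations over 0.1, which in groups this small cannot exclude one.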

Additional observations from a re-analysis of the deposited data

Results flagged for a closer look

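Some snoRNAs were apart between genotypes in opposite directions in 2 states, with no overlap of libraries in either. Between baseline and MI this was so for 7 of 45 members (15.6%, against 3.75% of all genes), each higher in PKM2-/- at baseline and lower after MI. The difference of the genotype differences (MI minus baseline, log2) was −3.70 for Snord89, −2.12 for Snora44, −2.54 for Snora7a, −3.16 for Snord13, −3.18 for Snora5c, −2.82 for Snord118 and −2.37 for Snora47. limma's test of this difference gave adjusted p of 0.138 to 0.359, so none passed. Between baseline and sham it was so for 4 of 45 members (8.89%, against 3.25% of all genes), and the difference (sham minus baseline) was −1.28 for Snora73b, −1.28 for Snord2, −1.66 for Snora78 and −1.75 for Snora57. The difference was not tested for these 4. Each baseline group has 2 libraries, and the PKM2-/- baseline libraries had 43.0% and 38.6% of their reads on the ribosomal RNA loci. The part of that share in these differences was not tested.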

How the results depend on the processing

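The limits are depth and group size. Most snoRNAs under 100 bases had too few reads to test, and the members with a mean near 10 rest on a few reads a library, so that a missing call there does not show that the groups were alike. Groups of 2 and 3 give wide intervals.

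Of the calls of single members, none reversed under any alternative run. Snord80 in both genotypes, Snora74a in PKM2fl/fl and Snora57 in PKM2-/- were called under all 14. The number of members called in PKM2fl/fl after MI was 3 with total-read scaling, 15 with edgeR and 16 with DESeq2, and 2 to 7 when a library was left out, the lowest without MI replicate 3. In PKM2-/- it was 15 without the limit on low values, 18 with total-read scaling, 15 with edgeR and 13 with DESeq2, and 4 to 7 with a library left out, the lowest without sham replicate 1. Between genotypes after sham surgery 3 members were called with total-read scaling, 1 with DESeq2 and 2 with only the groups compared. After MI DESeq2 called 1, and 0 to 1 were called with a library left out. The difference of MI changes had 1 call with total-read scaling and 0 to 1 with a library left out. The difference of genotype differences between MI and baseline had 4 with DESeq2 and 0 to 1 with a library left out. The cause of these changes was not tested, beyond the other numbers of members tested, 45 as reported, 47, 67 and 119 with total-read scaling, edgeR and DESeq2. Shares of all genes are given above for the total-read, edgeR and DESeq2 counts of MI against sham, and for DESeq2 in the other comparisons. For the other settings no such share is given, so those counts show only how far the number of calls moved.

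The genotype difference of the shares ranged, with a library left out, from −0.44 to −0.25 for box C/D, −0.83 to −0.56 for box H/ACA and −0.39 to −0.28 for the ratio. MI minus sham ranged from 0.43 to 0.71 and from 0.29 to 0.69 for the 2 shares. For box C/D the sham minus baseline difference, 0.00 in the report, turned to −0.051 outside the ribosomal RNA loci and −0.077 as a sum of normalized counts, and ranged from −0.11 to 0.13 with a library left out. Without the 4 most abundant members, an alternative chosen after seeing the data, it turned to −0.045 for box H/ACA and −0.068 for the ratio.

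With the replicate number as a replicate block, 7 members rose and 1 fell in PKM2fl/fl and 5 rose and 1 fell in PKM2-/- after MI, and 0 were called in the other comparisons. The shares of all genes called under the block are not given here, so these counts say nothing particular to snoRNAs. Snord118 (1.32) and Snora31 (1.19) lost the PKM2-/- call under the block. Correlations of deviations between same-numbered libraries ran from −0.196 to 0.126, which in groups this small cannot exclude a pairing.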
